A study of Mus musculus with 23 samples.

Results

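Reelin and the core of its receptor pathway are described here through 4 genes, Reln, Lrp8, Vldlr and Dab1, out of 21938 protein-coding mouse genes. They were chosen by name, as the ligand, its receptor pair and the adaptor that the receptors use. Every peak of 8 deposited ChIP-seq peak lists was taken that lay within 5 kb of the transcription start site (TSS), in the gene body or in the 100 kb on either side of it.

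Reelin is a large secreted glycoprotein made by Cajal-Retzius cells, the early neurons of the outermost cortical layer. It binds ApoER2 (encoded by Lrp8) and VLDLR on migrating neurons, and the adaptor Dab1 on the inner side of the membrane is then phosphorylated by Src-family kinases. Loss of Reelin, of both receptors together or of Dab1 disturbs the layering of the cortex. Of the marks measured, acetylation of lysine 27 of histone H3 (H3K27ac) is found at active promoters and enhancers, and trimethylation of the same lysine (H3K27me3) is the mark of Polycomb repression.

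Cells came from the cerebral cortex of untreated embryos of the mouse strain Tg(Ebf2-EGFP)FB58Gsat, in which EGFP follows the regulatory sequence of the Ebf2 transgene, and were sorted by fluorescence into Ebf2-EGFP+ cells, taken at embryonic days E11.5, E13.5 or E15.5, and Ebf2-EGFP- cells, taken at E11.5 alone. All groups carry the transgene, so the sort separates cells by transgene activity, not by genotype. By the study's account, Ebf2-EGFP+ cells are preplate neurons at E11.5 and mostly Cajal-Retzius cells at E15.5, while most of the Ebf2-EGFP- cells are progenitors. Each list belongs to 2 ChIP libraries, with the exception of the Ebf2-EGFP- H3K27ac list, which belongs to 1. A single list was deposited for each group, so no difference between groups has a replicate error and none was tested. A peak has a position and a width only, because the score is 0 throughout. The number of reads behind a list is unknown, and fewer cells carrying a mark cannot be told apart from less of the mark per cell.

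The lists differ in length, which bears on every count that follows. The Ebf2-EGFP- list of H3K27ac held 1386 peaks, and those of Ebf2-EGFP+ cells held 37055, 102877 and 25787 by stage (youngest first, as in each such series of values here). The Ebf2-EGFP- list of H3K27me3 held 48962 peaks, and those of Ebf2-EGFP+ cells held 6387, 6721 and 1429 by stage. The narrowest peak of an H3K27ac list was 126 bp (E13.5) to 184 bp (E15.5) wide, and 8.53% to 16.7% of the peaks of such a list had exactly its narrowest width. For the H3K27me3 lists the narrowest widths were 116 bp (E11.5 and E13.5 Ebf2-EGFP+) to 130 bp (Ebf2-EGFP-), held by 12.9% to 31.5% of peaks. In the H3K27ac list of E11.5 Ebf2-EGFP- cells, 0 of 6 progenitor markers and 2 of 8 Cajal-Retzius markers (Nhlh2 and Tbr1) had a TSS peak, beside 4.17% of all TSS, so the progenitor label could not be checked from so short a list. The H3K27me3 list of those cells marked the TSS of 7 of 8 Cajal-Retzius markers and 4 of 6 progenitor markers, beside 48.2% of all TSS. At E15.5, TSS acetylation was listed at 6 of 8 Cajal-Retzius markers, 4 of 5 markers of postmitotic neurons, 4 of 6 progenitor markers, 2 of 3 interneuron markers, 2 of 3 microglial markers, 1 of 3 mesenchymal markers, 1 of 3 red cell markers and 0 of 3 endothelial markers, beside 52.3% of all TSS. What part other cells have in the peaks of the 4 genes was not tested.

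The start sites of Reln, Vldlr and Dab1 differ in base composition, and their sequences are shown because the acetylation described below lies on or beside them. Each is the 250 bases before a GENCODE transcript start, on mm10 (GRCm38.p6, sequence from RefSeq), and capitals mark each GC box (GGGCGG on either strand), the site known for Sp1-family factors. The Reln stretch is chr5:22344703-22344952 (minus strand), the Vldlr stretch chr19:27216770-27217019 (plus strand, before the first protein-coding start), and the Dab1 stretches are chr4:103619109-103619358 before the gene's 5′ end and chr4:104366863-104367112 before the inner start 747.8 kb downstream (both plus strand).
Reln: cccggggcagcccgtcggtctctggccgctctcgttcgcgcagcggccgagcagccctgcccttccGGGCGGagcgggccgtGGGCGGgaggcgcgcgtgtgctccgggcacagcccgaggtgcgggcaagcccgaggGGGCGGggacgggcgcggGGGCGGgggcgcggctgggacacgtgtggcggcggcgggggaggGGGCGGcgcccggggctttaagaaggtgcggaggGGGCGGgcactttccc
Vldlr: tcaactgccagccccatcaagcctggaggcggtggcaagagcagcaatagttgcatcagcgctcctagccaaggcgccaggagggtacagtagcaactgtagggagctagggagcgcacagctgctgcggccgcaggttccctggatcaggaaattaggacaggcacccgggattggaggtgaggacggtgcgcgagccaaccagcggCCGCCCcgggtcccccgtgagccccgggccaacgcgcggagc
Dab1, 5′ end: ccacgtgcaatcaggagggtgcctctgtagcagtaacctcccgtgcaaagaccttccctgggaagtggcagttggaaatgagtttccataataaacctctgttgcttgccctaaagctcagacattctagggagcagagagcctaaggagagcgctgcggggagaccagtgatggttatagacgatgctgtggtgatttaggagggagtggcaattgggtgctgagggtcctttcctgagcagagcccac
Dab1, inner start: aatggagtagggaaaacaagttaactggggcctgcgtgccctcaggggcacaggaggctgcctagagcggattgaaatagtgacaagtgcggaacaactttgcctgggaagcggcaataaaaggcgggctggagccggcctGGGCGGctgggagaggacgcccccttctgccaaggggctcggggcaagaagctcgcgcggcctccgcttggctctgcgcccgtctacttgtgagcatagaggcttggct

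The Reln stretch held 80.8% G and C and 6 GC boxes, the Vldlr stretch 66.4% and 1, and the inner Dab1 stretch 62% and 1. Lowest of the 4 was the stretch before the 5′ end of Dab1, with 53.6% G and C and 0 GC boxes. Its CpG content was 0.29 of that expected from its C and G, against 0.96 for Reln, 0.66 for Vldlr and 0.65 for the inner Dab1 start. Over 32851 RefSeq promoters cut to the same 250 bases, the medians were 52.4% G and C and a CpG ratio of 0.37, and 32.7% held a GC box. The other motifs searched on both strands were absent from the 4 stretches. They were the EBF palindrome TCCCNNGGGA, in 0.779% of promoters, the T-box site AGGTGTGA in 1.12%, the E-box CAGATG in 14.4% and the homeodomain site TAATTA in 4.84%. These values depend on the start chosen, as Vldlr was shown at a coding start and Dab1 at its outermost 5′ end too. The 300 bases around the outermost 5′ end of Vldlr held 43% G and C, 0 GC boxes and 1 TAATTA. Those around a second inner start of Dab1, 748.2 kb into the gene, held 77.3% G and C and 1 GC box. Their CpG ratio was 1.04, against 1.01 for the 300 bases around the Reln start. H3K27ac of all 3 stages of Ebf2-EGFP+ cells overlapped these Dab1 bases.

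All 4 genes had an H3K27ac peak within 5 kb of the TSS at each of the 3 stages of Ebf2-EGFP+ cells. Such a peak was found at 49.9%, 60.9% and 52.3% of all protein-coding TSS by stage, and at all 3 stages for 33.1%. Within 1 kb of the TSS, Lrp8 alone of the 4 had one at all 3 stages, as 24% of all genes did, while Vldlr lacked it at E11.5, Reln at E13.5 and Dab1 at E15.5. For Vldlr this was counted from its outermost 5′ end, and its E11.5 peak lay within 1 kb of the coding start 0.9 kb inside that end. In E11.5 Ebf2-EGFP- cells only Reln had an H3K27ac peak at the TSS, beside 4.17% of all TSS. H3K27me3 was at the TSS of Lrp8 and Vldlr in E11.5 Ebf2-EGFP- cells (48.2% of all TSS), at that of Dab1 at E13.5 (9.31%), and at 0 of the 4 genes in Ebf2-EGFP+ cells at E11.5 (4.92%) and E15.5 (1.06%). H3K27me3 in Ebf2-EGFP- cells with acetylation at all 3 stages of Ebf2-EGFP+ cells was thus the state of the 2 receptor genes, and of 25.3% of all genes. The H3K27me3 call in that state rested on narrow peaks. With peaks of at least 300 bp, 0 of the 4 genes had H3K27me3 there, beside 16.78% of all TSS. All 4 had it when any annotated transcript start was counted, a setting for which no share over all genes is given here. Of the remaining pair, Reln was listed with H3K27ac alone in all 4 cell groups. Dab1 was listed with neither mark in Ebf2-EGFP- cells. In Ebf2-EGFP+ cells it was listed with H3K27ac alone at E11.5 and E15.5 and with both marks at E13.5. With peaks of at least 300 bp, Dab1 had no H3K27ac peak at the TSS in any list. The exact pattern of the receptors over the 8 lists was held by 17.26% of genes, that of Reln by 0.39% and that of Dab1 by 0.64%. These shares depend on list length and narrow peaks. The Reln pattern includes a 267 bp peak of the Ebf2-EGFP- H3K27ac list, which marked 4.17% of all TSS. The Dab1 pattern includes H3K27me3 at E13.5, listed at 9.31% of all TSS. The E13.5 H3K27ac peaks of both genes were 126 bp wide, the narrowest width of that list. Both marks at 1 TSS were found for 0 of 4 genes in E11.5 Ebf2-EGFP- cells (3.42% of all genes) and for 1 at E13.5 (8.39%).

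**Figure D1:**
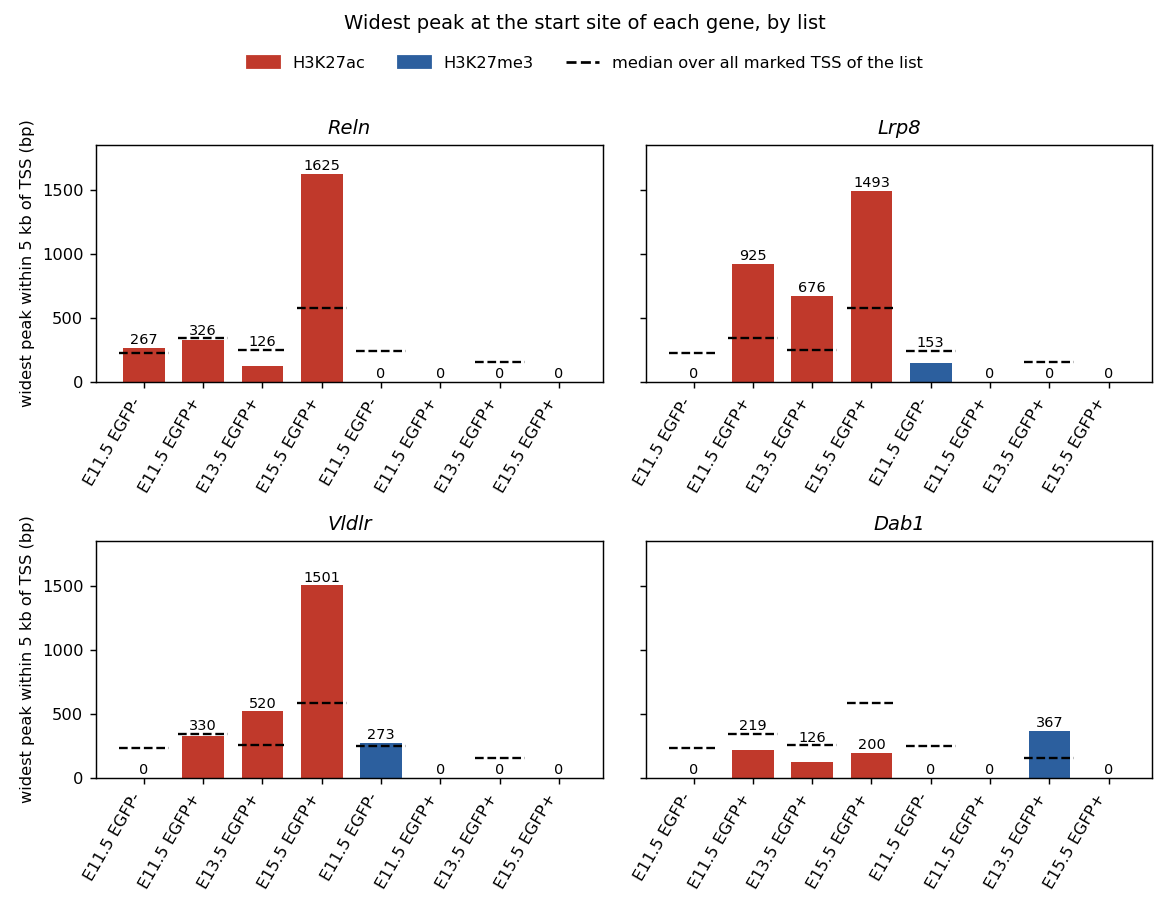
Width in bp of the widest peak within 5 kb of the TSS of each gene (1 panel a gene), for the 4 H3K27ac lists (red) and the 4 H3K27me3 lists (blue). A value of 0 means no peak, and the dashed line is the median over all TSS marked in that list, drawn for lists that mark at least 1 of the 4 genes (EGFP on the axis stands for Ebf2-EGFP). At E15.5 Reln, Lrp8 and Vldlr had H3K27ac peaks of 1625, 1493 and 1501 bp, and Dab1 had 200 bp at its 5′ end.

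Peak width separated the genes at E15.5. Reln, Lrp8 and Vldlr each had an H3K27ac peak of at least 1000 bp at the TSS, as 9.71% of all genes did, and their peaks were wider than those of 97%, 95.5% and 95.6% of the 11468 TSS marked at that stage. The Dab1 peak of 200 bp was wider than 4.8% of them. In the first 3 genes the widest TSS peak at E15.5 was wider than at both earlier stages, a course that 42% of all genes shared. The median widest peak over all marked TSS was itself 342 bp at E11.5, 255 bp at E13.5 and 582 bp at E15.5. When the H3K27ac lists were cut to their 1386 widest peaks, Reln, Lrp8 and Vldlr kept a TSS peak at E15.5 (6.87% of all TSS), Lrp8 alone kept one at E11.5 (6.25%), and none of the 4 kept one at E13.5 (1.39%). At E15.5 this cut kept peaks of at least 1120 bp, so it restates the widths and is no separate check of them.

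Reln, the ligand, lies on chromosome 5 from 21884454 to 22344702 on the minus strand, and spans 460.2 kb and 65 exons. In E11.5 Ebf2-EGFP- cells the only H3K27ac peak of its 660.2 kb window was 267 bp wide and centred 0.3 kb before the TSS. Ebf2-EGFP+ cells at E11.5 had a 326 bp peak over the same place and one of 216 bp in the 5′ untranslated part of exon 1. At E13.5 the peak counted at the TSS was 126 bp wide, the narrowest width of that list, and lay 1.5 kb upstream, where it overlapped no peak of another list. At E15.5 a single peak of 1625 bp ran across the TSS and over both E11.5 peaks. The printed Reln stretch was thus overlapped by H3K27ac in both E11.5 cell groups and at E15.5, and not at E13.5.

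Acetylated sites in the body of Reln mostly belonged to 1 list, which was not shown to be particular to this gene. The Reln window as a whole held 1, 0.8 and 0.64 times the genome's number of acetylated peaks per 100 kb by stage. Across the genome, 36.7% of the E11.5 Ebf2-EGFP+ peaks of this mark overlapped one of E13.5. In the other direction, 13.6% of the E13.5 peaks overlapped one of E11.5. No such shares were computed for gene bodies alone. Ebf2-EGFP+ cells had 4, 14 and 1 body peaks by stage, all intronic and none wider than 470 bp. The single body site that recurred between stages was in intron 52, 426.6 kb from the TSS, with 169 bp at E11.5 and 126 bp at E13.5. The widest body peak, of 470 bp in intron 3 at E13.5, lay wholly in repeat-masked sequence and overlapped a 362 bp H3K27me3 peak of Ebf2-EGFP- cells. Beyond the 3′ end, the peaks at 557.7 and 559.7 kb at E15.5 lay 1.4 kb from the start of Psmc2 and at the start of Dnajc2.

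H3K27me3 was absent from the Reln start in all 4 lists. Ebf2-EGFP- cells had 6 peaks in the window, of 130 to 362 bp, from 40.8 kb before the TSS to coding exon 60. Ebf2-EGFP+ cells had 0 at E11.5, 1 of 138 bp at E13.5, located 485.8 kb from the TSS beyond the gene, and 0 at E15.5.

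**Figure D2:**
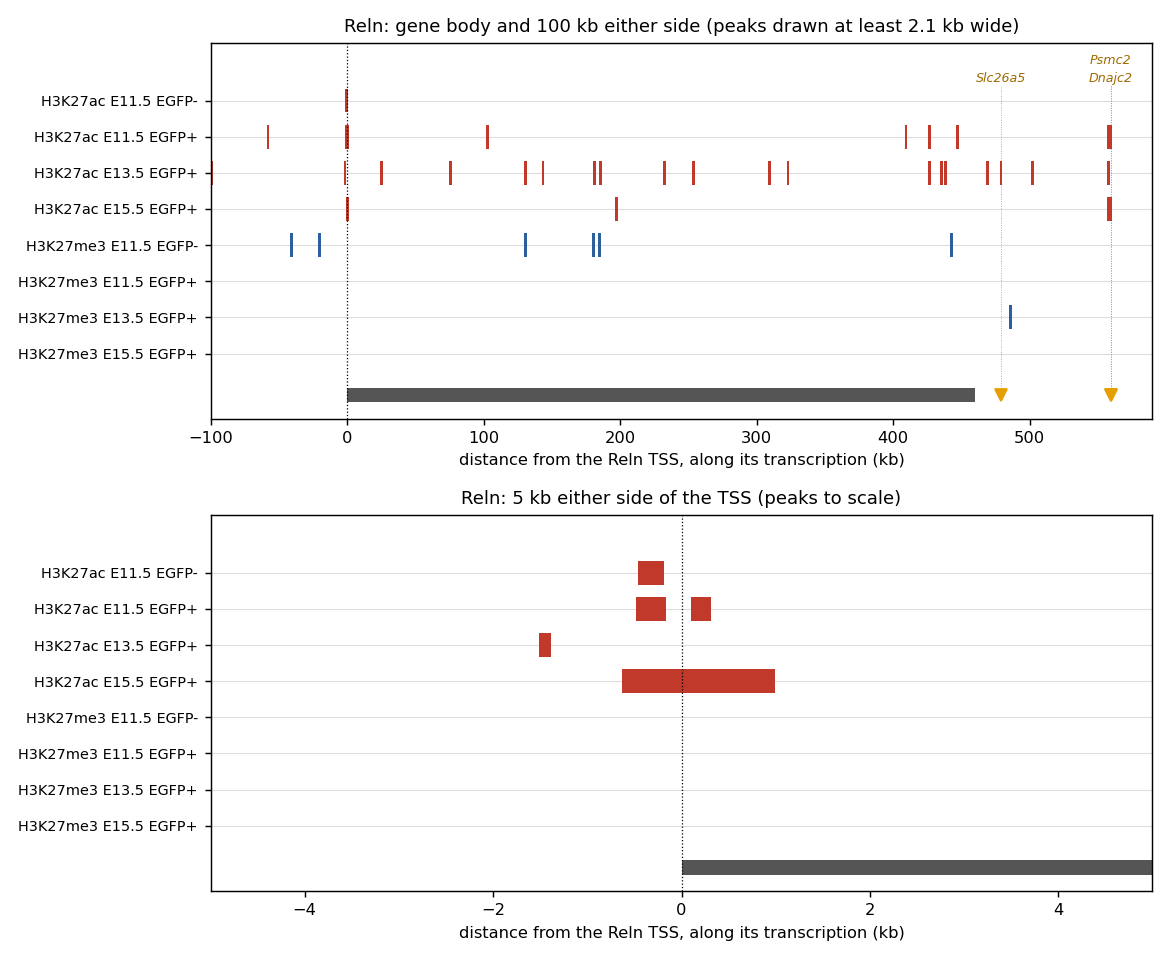
Peaks of the 8 lists around Reln by distance from its TSS in kb along the direction of transcription, H3K27ac in red and H3K27me3 in blue, with the gene as a grey bar and starts of neighbouring genes as orange triangles. The upper panel shows the gene and 100 kb either side, and the lower panel 5 kb either side of the TSS, where the 1625 bp peak of E15.5 covers the E11.5 peaks and the 126 bp peak of E13.5 stands apart at 1.5 kb upstream.

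Lrp8, which encodes the receptor ApoER2, lies on chromosome 4 from 107802261 to 107876840 on the plus strand. Its TSS peaks in Ebf2-EGFP+ cells were 925 bp wide at E11.5, 676 bp at E13.5 and 1493 bp at E15.5, and they overlapped each other. Each was wider than 95% or more of the marked TSS of its stage, which held for no other gene of the 4 at E11.5. In E11.5 Ebf2-EGFP- cells the start had no H3K27ac peak and 2 narrow H3K27me3 peaks, of 130 bp at 3.9 kb upstream and of 153 bp in intron 1. The second lay inside the E15.5 acetylated peak, and 14.6% of the TSS marked by that list had a narrower widest peak.

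Lrp8 was also the gene with the densest acetylation around it. Its window of 274.6 kb held 12, 30 and 5 H3K27ac peaks by stage, or 3.21, 2.89 and 1.92 times the genome's number per 100 kb. The other 3 genes lay between 0.48 and 1.24 times. The same window was dense in H3K27me3 as well, with 11 peaks in Ebf2-EGFP- cells (2.23 times) and 2 in Ebf2-EGFP+ cells at E11.5 (3.11 times), and 0 at the later stages. Of the 12 peaks at E11.5, 6 were in the body, including a 441 bp peak centred in coding exon 5, 364 bp in intron 2 and 159 bp in the 3′ untranslated part of exon 19. At E15.5 the body held 218 bp in intron 2 and 467 bp in intron 3, both at places with no peak at the earlier stages. Downstream, 4 neighbouring genes start within 100 kb, and 3, 5 and 2 of the distal peaks by stage lay within 5 kb of another gene's start. The widest of them, 764 bp at E15.5, covered the start of 0610037L13Rik and was listed at all 3 stages.

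Vldlr, which encodes the second receptor, lies on chromosome 19 from 27216484 to 27254231 on the plus strand, with its first protein-coding starts 0.5 and 0.9 kb inside that end. Its H3K27ac peaks were 330 and 235 bp at E11.5, 520 bp at E13.5, and 1501 and 285 bp at E15.5. The 330 bp, 520 bp and 1501 bp peaks overlapped in the first exon and intron of the protein-coding transcripts, and none reached the gene's outermost 5′ end. No H3K27ac peak was listed in the window of 237.7 kb in Ebf2-EGFP- cells. Those cells had H3K27me3 peaks of 273 bp and 173 bp at the same start, both overlapped by the E15.5 acetylated peak.

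Elsewhere Vldlr had few peaks. At E15.5 both its H3K27ac peaks were at the TSS, and at E13.5 the body held a single 307 bp peak in intron 1. The 554 bp peak of E11.5 at 107.2 kb overlapped H3K27me3 peaks of 429 bp in Ebf2-EGFP- cells and 438 bp in Ebf2-EGFP+ cells, 0.9 kb from the start of Kcnv2. It was the only place in the 4 windows where both marks of the same cell group overlapped.

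**Figure D3:**
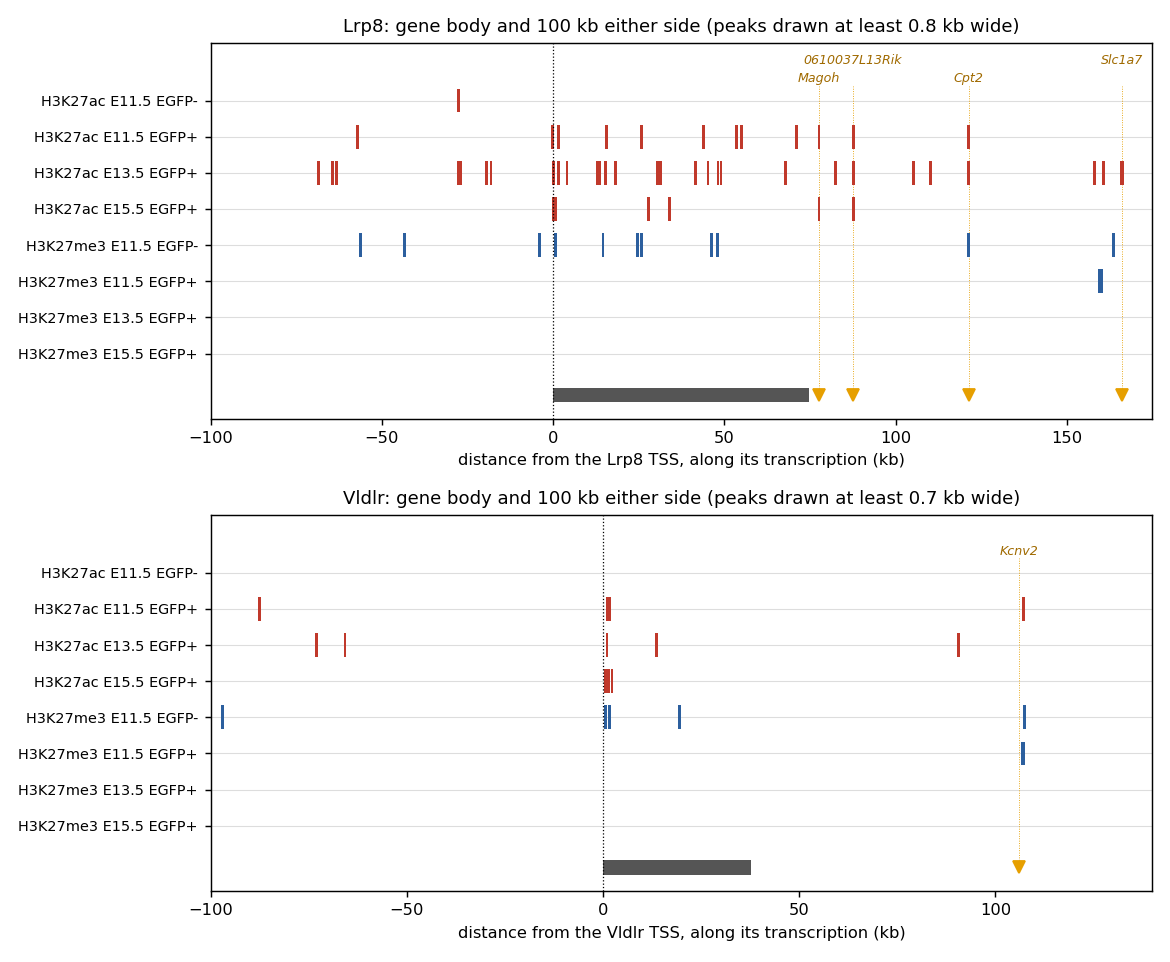
Peaks of the 8 lists around the receptor genes Lrp8 (upper panel) and Vldlr (lower panel) by distance from the TSS in kb, drawn as in the map of Reln. H3K27ac at the starts is present at the 3 stages of Ebf2-EGFP+ cells, the Ebf2-EGFP- list has H3K27me3 there, and Lrp8 has 30 H3K27ac peaks at E13.5 against 5 for Vldlr.

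Dab1, the adaptor, lies on chromosome 4 from 103619359 to 104744844 on the plus strand and is the longest of the 4, at 1126 kb. Its 5′ end is the start of a transcript annotated as non-coding (Dab1-205), and the longest coding transcript, Dab1-202, starts 0.3 kb inside it. There the H3K27ac peaks were 219 bp at E11.5, 126 bp at E13.5 and 200 bp at E15.5, centred 0.6, 0.1 and 2.3 kb from the TSS, and no 2 of them overlapped. The E13.5 peak had the narrowest width of its list. At E13.5 a 367 bp H3K27me3 peak lay beside it, running across the start of Dab1-202 and centred in intron 1. This H3K27me3 peak was wider than 97% of the widest peaks at the 2043 TSS that its list marked. It did not overlap the acetylated peak of its own stage, but overlapped that of E11.5.

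The widest acetylation of Dab1 at E11.5 and E15.5 was at an inner cluster of protein-coding starts, 747.8 and 748.2 kb into the gene. The transcripts Dab1-206, Dab1-207 and Dab1-203 begin there. There the H3K27ac peaks were 997 bp at E11.5, 139 and 260 bp at E13.5, and 1764 bp at E15.5. By overlap these made up 1 site of 1764 bp, with 65.2% G and C, and 0 H3K27me3 peaks lay within 5 kb of it in the 4 lists. The peaks of E11.5 and E15.5 stayed among the 1386 widest of their lists, as none at the 5′ end did. Dab1 thus had a narrow E15.5 peak at its 5′ end and, at the inner start, one wider than those at the starts of Reln, Lrp8 and Vldlr. At E13.5 the widest Dab1 peak was instead 628 bp in intron 2, 470.7 kb from the 5′ end. It lay wholly in repeat-masked sequence and overlapped a 306 bp H3K27me3 peak of Ebf2-EGFP- cells. Within 5 kb of a further inner start, 892.7 kb from the 5′ end, E13.5 had 232 bp of H3K27ac and Ebf2-EGFP- cells 130 bp of H3K27me3.

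The whole Dab1 window, these starts included, held 11, 35 and 6 H3K27ac peaks by stage, which is 0.61, 0.7 and 0.48 times the genome's density. The only other site listed at E11.5 and E15.5 was 327 bp wide near the 3′ end, 1101 kb from the TSS. H3K27me3 in Ebf2-EGFP- cells counted 12 peaks of 130 to 306 bp, 0.5 times the genome's density, with none at the 5′ end. In Ebf2-EGFP+ cells there were 3 at E11.5, the 367 bp peak at E13.5, and a 149 bp peak at E15.5 in intron 1, 13.9 kb from the TSS, or 0.97, 0.31 and 1.44 times the genome's density.

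**Figure D4:**
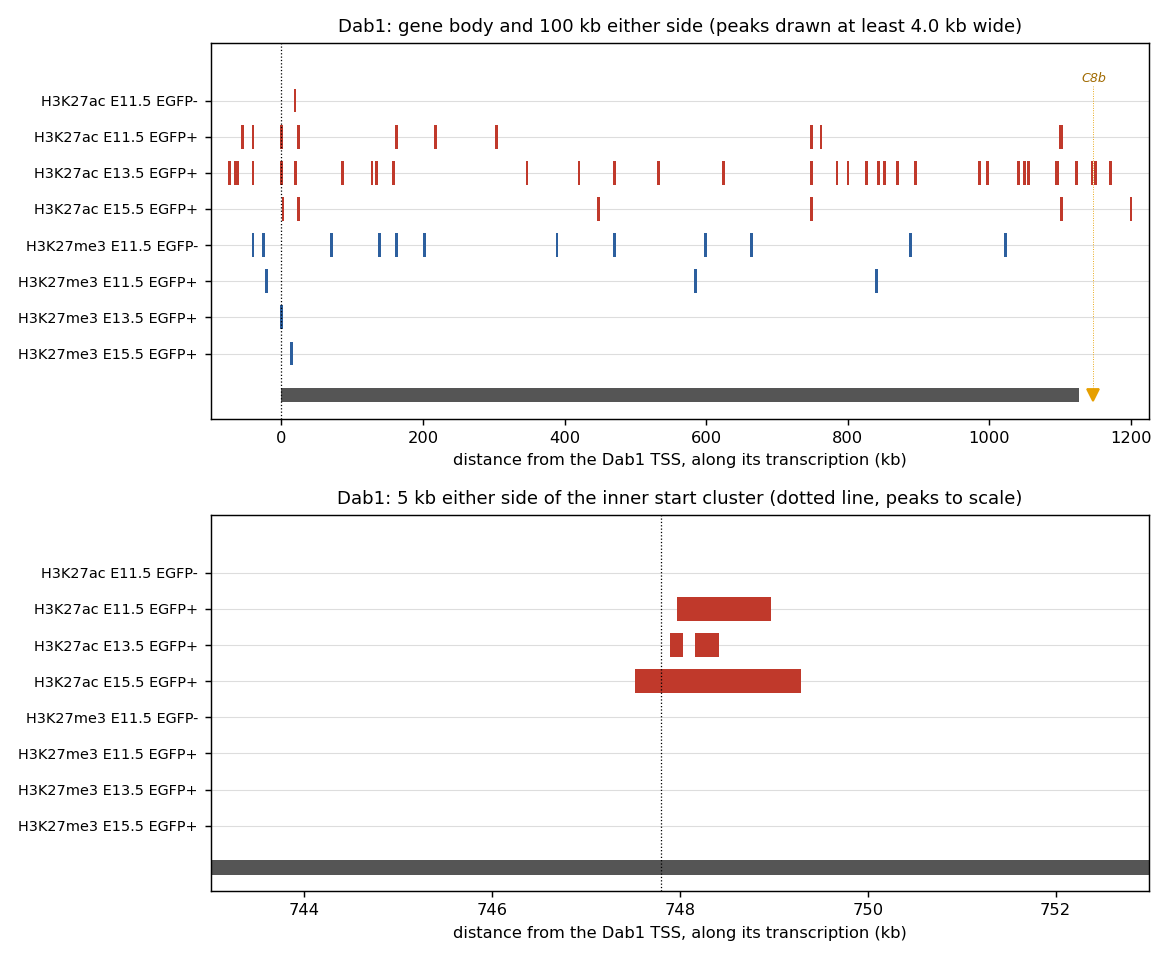
Peaks of the 8 lists around Dab1 by distance from the 5′ end of the gene in kb, drawn as in the map of Reln. The lower panel shows 5 kb either side of the inner start at 747.8 kb (dotted line), where H3K27ac peaks of 997 bp (E11.5), 139 and 260 bp (E13.5) and 1764 bp (E15.5) overlap and no H3K27me3 peak lies.

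Over the 4 windows together, 2498 kb, the H3K27ac lists had 3 peaks in Ebf2-EGFP- cells, with 36, 90 and 17 in Ebf2-EGFP+ cells by stage. That is 2.36, 1.06, 0.95 and 0.72 times the genome's density, the first on 3 peaks only. H3K27me3 had 34, 7, 2 and 1 peaks in the same order of cell groups, or 0.76, 1.2, 0.32 and 0.76 times. Peaks beyond the 5 kb window carried H3K27ac in 2, 4, 4 and 3 of the 4 genes and H3K27me3 in 4, 3, 1 and 1. Over all genes the shares with a peak in the body or a flank were 17%, 89%, 97.7% and 84.2% for H3K27ac and 93.4%, 52.8%, 52.8% and 15.4% for H3K27me3. The genes with no distal peak were Reln and Vldlr for H3K27ac in Ebf2-EGFP- cells, Vldlr at E15.5, and for H3K27me3 in Ebf2-EGFP+ cells Reln at E11.5, every gene but Reln at E13.5 and every gene but Dab1 at E15.5. The farthest peak counted at a TSS was centred 4.1 kb away, in intron 2 of Lrp8, and the nearest one not counted was 13.1 kb away in the same intron.

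**Figure D5:**
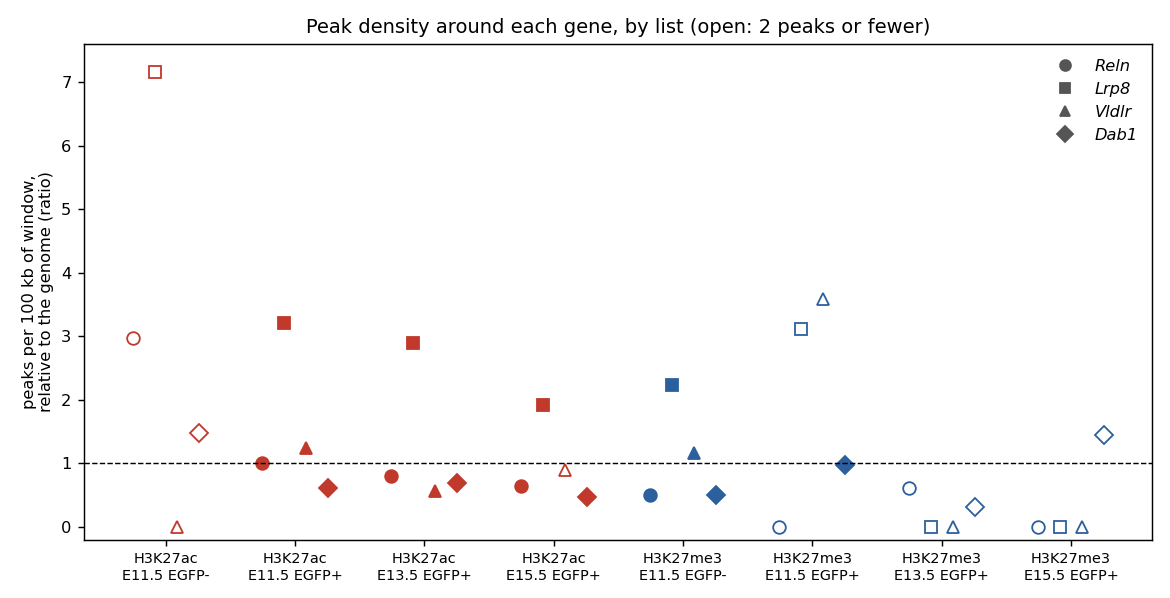
Peaks per 100 kb of the window of each gene (body and 100 kb either side) divided by the same over the genome, for the 4 H3K27ac lists (red) and the 4 H3K27me3 lists (blue). The dashed line at 1 is the genome's density and open symbols rest on 2 peaks or fewer. Lrp8 lies at 3.21, 2.89 and 1.92 in the H3K27ac lists of Ebf2-EGFP+ cells, above the other 3 genes.

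Few H3K27ac sites persisted through the stages. Joined by overlap, the peaks of the 3 Ebf2-EGFP+ lists formed 122 sites in the 4 windows, of which 109 were in 1 list, 8 in 2 and 5 in all 3, or 0 in all 3 when each peak had to overlap the others by 50% of both widths. Across the genome 4.48% of 135951 sites were in all 3. The 5 persistent sites were the TSS of Lrp8, the TSS of Vldlr, the inner start of Dab1, and sites beside other genes' starts in the flanks of Lrp8 (0610037L13Rik) and Reln (Psmc2). The start of Reln was not among them, since its E13.5 peak lay apart. Of the sites in 1 list, 21 were of E11.5, 80 of E13.5 and 8 of E15.5. E13.5 also had the longest list.

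Some H3K27me3 peaks of Ebf2-EGFP- cells lay on bases that were acetylated in Ebf2-EGFP+ cells. Of the 34 peaks, 6 overlapped H3K27ac of E11.5 (17.6%, against 21.7% of that list across the genome), 4 overlapped that of E13.5 (11.8% against 37.7%) and 3 that of E15.5 (8.8% against 18.4%). Of the 6, 1 was at the start of Cpt2 and 1 near that of Kcnv2, outside the genes studied. The other 4 lay outside all exons and are shown, with capitals for the bases inside both the H3K27me3 peak and the E11.5 H3K27ac peak. They are chr4:107828032-107828331 in intron 2 of Lrp8, chr19:27217998-27218297 in intron 1 of Vldlr, chr4:103579097-103579396 upstream of Dab1 and chr4:103781535-103781755 in intron 1 of Dab1, all on the plus strand of mm10 with sequence from RefSeq.
Lrp8, 25.92 kb from the TSS: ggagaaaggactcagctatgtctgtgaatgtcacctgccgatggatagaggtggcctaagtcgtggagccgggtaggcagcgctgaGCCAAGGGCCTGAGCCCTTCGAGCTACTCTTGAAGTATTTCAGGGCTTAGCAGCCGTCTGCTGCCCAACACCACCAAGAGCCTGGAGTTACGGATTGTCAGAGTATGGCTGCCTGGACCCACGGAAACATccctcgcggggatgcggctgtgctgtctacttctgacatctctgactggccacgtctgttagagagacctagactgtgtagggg
Vldlr, 1.69 kb from the TSS: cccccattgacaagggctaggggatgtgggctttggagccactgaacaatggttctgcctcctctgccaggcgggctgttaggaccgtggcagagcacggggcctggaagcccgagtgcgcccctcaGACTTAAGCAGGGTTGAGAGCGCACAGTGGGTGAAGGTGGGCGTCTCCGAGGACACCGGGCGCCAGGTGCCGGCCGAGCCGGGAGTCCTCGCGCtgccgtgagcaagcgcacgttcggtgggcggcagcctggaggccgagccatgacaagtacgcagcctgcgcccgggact
Dab1, 40.07 kb before the TSS: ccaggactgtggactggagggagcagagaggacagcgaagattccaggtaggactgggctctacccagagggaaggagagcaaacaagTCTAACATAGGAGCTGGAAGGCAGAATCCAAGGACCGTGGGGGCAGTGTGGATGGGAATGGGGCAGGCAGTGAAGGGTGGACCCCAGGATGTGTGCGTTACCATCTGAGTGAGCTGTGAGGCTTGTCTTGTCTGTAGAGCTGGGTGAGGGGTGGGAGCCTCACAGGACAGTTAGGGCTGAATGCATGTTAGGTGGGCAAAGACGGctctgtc
Dab1, 162.3 kb from the TSS: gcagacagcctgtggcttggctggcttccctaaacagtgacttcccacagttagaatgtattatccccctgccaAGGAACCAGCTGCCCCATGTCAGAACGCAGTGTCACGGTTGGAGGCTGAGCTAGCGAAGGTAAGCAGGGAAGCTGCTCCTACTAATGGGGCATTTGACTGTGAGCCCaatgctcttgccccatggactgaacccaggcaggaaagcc

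The shared bases numbered 130 in Lrp8, 94 in Vldlr, and 205 and 107 at the Dab1 sites. The Vldlr stretch had 67.7% G and C and 24 CpG, and was acetylated at E15.5 too. The Lrp8 stretch had 57% and 12 CpG. The Dab1 stretches had 57.3% and 4 CpG upstream, where E13.5 was acetylated as well, and 55.7% and 3 CpG in intron 1. The Lrp8 H3K27me3 peak, at 130 bp, had the narrowest width of its list.

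The likeness of the 4 genes was measured as the Euclidean distance between their covered bases within 5 kb of the TSS, as log10(1 + bp), over the 8 lists. Lrp8 and Vldlr were 0.472 apart, and all other pairs were 3.59 to 3.88 apart. On this scale the larger distances mostly reflect which lists have a peak and which have none. The protein-coding genes most like Reln were Ireb2, Nfe2l1 and Srsf6, at 0.268 to 0.309. Those most like Lrp8 were Suds3, Taok3 and Rybp, at 0.099 to 0.103, where Suds3 and Taok3 had the same covered bases in all 8 lists. The genes most like Vldlr were Fbrs, Cars2 and Dcaf6, at 0.053 to 0.096. Those most like Dab1 were Nolc1 at 0.274, Zfp445 at 0.416 and Dhrs4 at 0.438.

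Other genes of the pathway were taken as 45 genes in 8 lists. In Ebf2-EGFP+ cells 35, 36 and 34 of these had a TSS H3K27ac peak by stage, which is 77.8%, 80% and 75.6% beside 49.9%, 60.9% and 52.3% of all TSS. The 27 with one at all 3 stages were 60% of the lists, beside 33.1% of all genes. In Ebf2-EGFP- cells 5 had one (11.1% beside 4.17%), namely Fyn, Akt1, Pafah1b2, Cdh2 and Itgb1, and 36 had TSS H3K27me3, 80% beside 48.2% of all TSS. Of the 15 genes whose products phosphorylate Dab1 or act after it, 13 were acetylated at all 3 stages, including the Src-family kinases Fyn and Yes1, the adaptor Crkl and its partner Rapgef1. The 3 genes of Dab1 turnover (Cul5, Rnf7 and Socs7) and the 3 of the Lis1 complex (Pafah1b1, Pafah1b2 and Pafah1b3) all were. So were 2 of 3 adhesion effectors, 2 of 4 genes of receptor chaperoning, sorting and turnover, 1 of 3 genes of the Cdk5 kinase, 2 of 9 ligands and proteases (Adamts2 and Adamts4) and 1 of 5 other LDL receptor family genes (Lrp1). Differences between these lists were not tested. Plat, Lrp1b and Itga3 had no TSS H3K27ac peak at any stage of Ebf2-EGFP+ cells. H3K27me3 at the TSS in an Ebf2-EGFP+ list was found for 9 of the 45, beside 14.1% of all genes, and the 9 were Apoe, Lrp2, Rapgef1, Rap1b, Pik3r2, Akt1, Cfl1, Pafah1b1 and Pafah1b2. An E15.5 peak of at least 1000 bp, as at the starts of Reln, Lrp8 and Vldlr, was found at 15 of the 45, beside 9.71% of all genes.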

How the data were processed

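H3K27ac and H3K27me3 were profiled by ChIP-seq in 15 samples of 8 groups of sorted cortical cells, and 8 input samples were not analysed here. The authors used Bowtie (1.1.2 in the submitters' processing notes) for alignment to mm10, allowing 3 mismatches, and then MACS with a p threshold of 1e-05 for peak calling. Its version, the use of the input and the pooling of replicates are not given in the sources used here. The authors deposited 1 list per group with positions and a score, which was 0 for every peak, so a score threshold could not be varied. Starts were read as counted from 0 and are printed from 1, which the lists do not state and which may shift a start by 1 bp.

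The genes, pathway lists, markers and settings were chosen with earlier results of these data known. Protein-coding genes of chromosomes 1 to 19, X and Y came from GENCODE M21 (GRCm38), with the 5′ end as TSS. Intron and exon numbers are those of the longest coding transcript at the centre of the peak. A peak was counted at the TSS within 5 kb, else in the body, else in a flank of up to 100 kb. Peaks were shared when they overlapped by at least 1 bp. Named were the 4 genes, their widest peaks, sites of all 3 Ebf2-EGFP+ H3K27ac lists, preset pathway genes and the 3 nearest genes by likeness. The E11.5 H3K27me3 and H3K27ac overlaps, the pairs of narrowest widths and the 250 base stretches were chosen after their values were seen, and stretches over exons of other genes are not printed. The start sequence of Lrp8 is not reported here. The counting was tested on simulated intervals. No p-value was computed. Python 3.11.15, numpy 2.4.6, pysam 0.24.0 and samtools 1.23.1 were used.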

Additional observations from a re-analysis of the deposited data

How the results depend on the processing

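Of 70 alternative values for 21 counts, 47 stayed within 1.5 times the reported count and 23 did not. With peaks of at least 300 bp, the genes with a TSS peak fell to 2 for H3K27ac at E13.5, beside 22.98% of all TSS. They fell to 0 for either mark in Ebf2-EGFP- cells, beside 1.21% of all TSS for H3K27ac and 16.78% for H3K27me3. With that width, the H3K27ac peaks of the 4 windows numbered 0, 8, 8 and 9 in Ebf2-EGFP- and then Ebf2-EGFP+ cells by stage, and the H3K27me3 peaks 4, 2, 1 and 0. For equal lengths, the widest 1386 H3K27ac or 1438 H3K27me3 peaks were kept, the latter with peaks outside chromosomes 1 to 19, X and Y counted. The genes with a TSS peak were then 1 for H3K27ac at E11.5 (6.25% of all TSS) and 0 at E13.5 (1.39%) in Ebf2-EGFP+ cells. For H3K27me3 in Ebf2-EGFP- cells they were 0 (2.98%). The window peaks were then 2, 0 and 4 for H3K27ac of Ebf2-EGFP+ cells by stage, and 0, 4 and 1 for H3K27me3 in Ebf2-EGFP- cells and in Ebf2-EGFP+ cells at E11.5 and E13.5. Both settings keep fewer peaks by construction. With any annotated transcript start as TSS, all 4 genes had H3K27me3 in Ebf2-EGFP- cells, through inner starts of Reln and Dab1. Those peaks were 191 bp and 130 bp wide, the latter the narrowest width of the list. Reln has 10 distinct starts and Dab1 7, and no share over all genes is given for this setting. With a flank of 50 kb, the H3K27me3 peaks of E11.5 Ebf2-EGFP+ cells fell to 3. With a reciprocal overlap of 50%, 0 H3K27ac sites were in all 3 lists. With a TSS window of 1 kb, each Ebf2-EGFP+ list marked 3 of 4 genes with H3K27ac, but a different gene dropped out at each stage. Only Lrp8 then had the mark in all 3 lists, as 24% of all genes did. Merging of peaks within 1 kb moved no count past 1.5 times. No paired analysis was possible because each group has 1 list and no test was made. The depth behind each list is unknown, so the absence of a peak is the absence of a call.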
